A study of Homo sapiens with 24 samples.

Results

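U251 is an established human glioblastoma cell line. The comparison described here is that of vehicle-treated U251 cells kept in culture for 72 h with vehicle-treated cells kept for 24 h, without the compound that the wider study tested. The members are the 4 arrays labelled DMSO 72 h and the 4 arrays labelled DMSO 24 h, which are 8 of the 24 arrays of the series. Both groups received DMSO at 0.1% per the labels, for 72 h or for 24 h, and no G-1, an agonist of the G protein-coupled estrogen receptor. The vehicle was added 48 h after plating, the second day of which was spent in serum that charcoal had cleared of steroids. The other groups received G-1 at its IC50 or at 1 µM for the same durations, and of these the 8 G-1 IC50 arrays are used below as a separate set of cultures. The labels call the replicates independent, and the cell line serves as a model of glioblastoma cells alone, with no tumour stroma. Neither the labels nor the methods give cell counts or confluence at harvest, so duration, density and the age of the medium cannot be told apart.

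A culture that is left to grow becomes denser while its medium is used up. In sparse cells the co-activators YAP and TAZ enter the nucleus, bind TEAD factors and drive genes such as CCN2 and AJUBA, and in crowded cells the Hippo kinases hold them in the cytoplasm. Growth factor signalling through the ERK kinases turns on its own inhibitors, among them the Sprouty proteins. It also turns on the ETV transcription factors, which are not inhibitors of it. Oxygen shortage, amino acid shortage, sterol shortage and contact inhibition each have known target genes, which were gathered here into lists.

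The promoter of CCN2 is shown first because it is a textbook target of TEAD and one of the genes that was lower at 72 h. The window runs from 250 bases before to 50 bases after the start, at chr6:131951323-131951622 on the minus strand (RefSeq, GRCh38.p14). Capitals mark the TEAD motif GGAATG, searched on both strands.
CCN2 promoter: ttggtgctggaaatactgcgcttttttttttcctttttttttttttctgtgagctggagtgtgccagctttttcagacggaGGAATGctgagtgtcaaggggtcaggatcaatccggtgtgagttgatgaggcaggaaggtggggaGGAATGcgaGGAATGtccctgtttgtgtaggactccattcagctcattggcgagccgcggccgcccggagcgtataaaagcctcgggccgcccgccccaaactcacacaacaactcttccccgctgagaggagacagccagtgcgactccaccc
It held 3 matches, which begin 169, 104 and 95 bases before the start. Of the 35116 promoters in the table, 14.03% held at least 1 match and 0.128% held 3 or more. The other list members named below as lower had fewer: the promoter of BIRC3 held 0 matches, and those of AJUBA held 0 and 1. Among the 21 tested YAP and TEAD target genes with a promoter in the table, 11 held a match, where 15.08% of all tested genes with a promoter did. Of the genes called below, a match was held by 8 of 41 lower at 72 h (19.51%) and 10 of 36 higher (27.78%). The motif was thus not more common among the lower genes than among the higher ones.

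The second sequence belongs to NR1D2, a transcriptional repressor of the circadian clock whose gene is driven by clock factors that bind the E-box CACGTG. It covers chr3:23945871-23946170 on the plus strand, the second of 2 promoters listed for this gene, and capitals mark the E-box, which reads the same on both strands.
NR1D2 promoter: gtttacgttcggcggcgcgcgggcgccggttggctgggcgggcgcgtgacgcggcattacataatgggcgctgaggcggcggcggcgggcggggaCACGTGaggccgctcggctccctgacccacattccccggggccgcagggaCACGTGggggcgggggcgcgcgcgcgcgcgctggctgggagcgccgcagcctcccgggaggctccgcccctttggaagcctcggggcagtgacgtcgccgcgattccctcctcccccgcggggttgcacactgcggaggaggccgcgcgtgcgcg
Its 2 matches begin 155 and 105 bases before the start, and 0.664% of all promoters held 2 or more. The first promoter of NR1D2 and those of NR1D1 and BMAL2, the other clock genes described below, held 0. A match describes the letters of the window and not the binding of a factor.

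RNA was hybridized to 1-colour arrays with 60901 spots for RNA each, and the number of arrays limits the precision. Between 41.1% and 43.3% of the spots were well above background on the 8 arrays. Replicates correlated at 0.991 to 0.997 over the tested probes. The arrays lay on 2 slides in 1 scanning session: slide 1 held 3 of the 24 h arrays and 2 of the 72 h arrays, and slide 2 held the other 24 h array and 2 of the 72 h arrays. The first principal component (28.0% of the variance) separated the slides and the second (23.8%) the durations, so the slide was a term of every fit unless stated. All 10 astroglial and glioma markers checked, among them GFAP, VIM and SOX2, were detected above background by all 8 arrays. Of the markers of other cell types, 5 of 6 neuronal (RBFOX3 and SNAP25 among them), 3 of 5 oligodendrocyte (MBP among them), 2 of 7 immune (CD14 and CSF1R), 2 of 6 endothelial (VWF and KDR) and 1 of 6 epithelial (CLDN4) were above it on all 8 as well. PTPRC (immune), PECAM1 (endothelial) and EPCAM (epithelial) were above it on none. The summed linear signal of the marker lists, relative to the 75th percentile, was 1627 at 24 h and 1666 at 72 h for the astroglial list, and 1.18 and 1.15 for the immune list. Such a sum is carried by the brightest probes and does not show how single markers moved. In mean log2 signal S100B was at 4.10 at 24 h and 4.59 at 72 h, SLC1A3 at 5.36 and 4.95, and SOX9 at 3.85 and 3.50. GFAP was at 6.70 and 6.73.

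**Figure D1:**
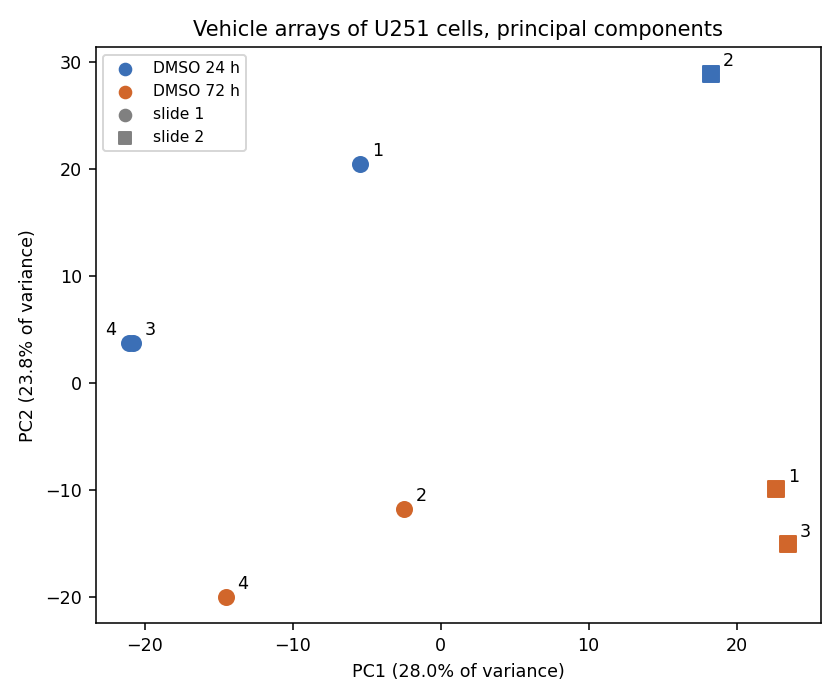
Principal components of the 8 vehicle arrays over the tested probes, with DMSO 24 h in blue, DMSO 72 h in orange, slide 1 as circles, slide 2 as squares and the replicate number beside each point. PC1 (28.0% of the variance) separates the slides and PC2 (23.8%) separates 24 h from 72 h.

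Gene expression differed little in size between 72 h and 24 h. The genes higher at 72 h were led by A2M (a secreted protease inhibitor), PSG5, SPRY1 (a Sprouty inhibitor of ERK signalling) and SPON2 (a secreted matrix protein). Of those measured at both durations, the lower ones were led by NEURL3 (an E3 ubiquitin ligase), TNC (tenascin C, a glioma matrix glycoprotein) and MMP7 (a matrix metalloproteinase). Of 13912 genes tested, 104 passed at an adjusted p below 0.05 (limma with Benjamini-Hochberg adjustment), which is 0.748%. Of these, 50 were higher at 72 h (0.359%) and 54 lower (0.388%). In a bulk culture a change in the number of cells that express a gene and a change in RNA per cell cannot be told apart. The absolute log2 fold change of the genes that passed began at 0.39 and had a median of 0.61, against a median SE of 0.09 over all genes. Only 11 genes also passed |FC| > 2 and are called DEGs here, 5 higher (0.0359%) and 6 lower (0.0431%). For TMEM40, OTOGL and LAG3 among them the fold change rests on a group whose arrays were all below the background limit, and the bounds given below for TMEM40 and LAG3 are under 2-fold. Over all genes the log2 fold change had a median of -0.01, and its 5th and 95th percentiles were -0.34 and 0.33.

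The calls lay close to the threshold and rested on all 8 arrays. With DMSO 24 h replicate 2 left out, no gene passed by limma (1439 at an unadjusted p below 0.05, against 2967 with all 8 arrays). Slide 2 then held no 24 h array, so that fit compares the durations on slide 1 alone. Without DMSO 72 h replicate 4 none passed either (2302), so every call given below was lost with either of these arrays removed. For the other 24 h arrays, 3 genes passed as higher and 5 as lower without replicate 3, and 21 and 13 without replicate 4. For the 72 h arrays, these numbers were 1 and 3 with replicate 1 removed, 6 and 8 with replicate 2 removed, and 10 and 7 with replicate 3 removed. Without DMSO 24 h replicate 1 the counts were 34 and 44, and 63 of the 104 genes were among them. All 104 genes kept their sign in these fits, which their selection on the same arrays makes likely. Within slide 2, where the 24 h group is a single array, and within slide 1 they kept it too. Of the DEGs, SPRY1, NEURL3 and TNC passed in 6 of the 8 fits that left out an array, SPON2 and MMP7 in 3, A2M and SERTAD4-AS1 in 2, PSG5 and OTOGL in 1, and TMEM40 and LAG3 in 0.

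**Figure D2:**
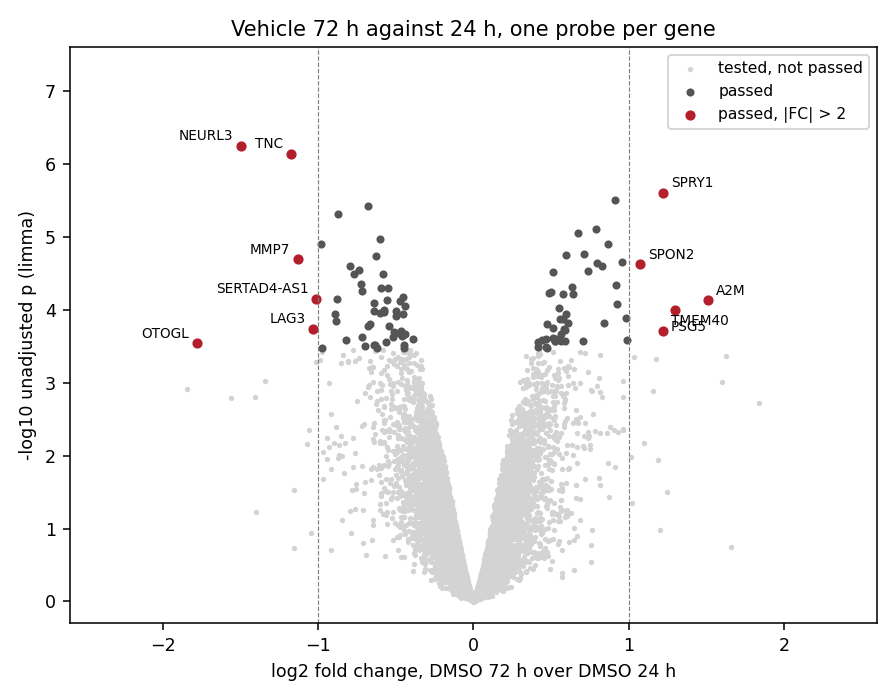
Log2 fold change of DMSO 72 h over DMSO 24 h (x axis, dashed lines at |FC| of 2) against -log10 of the unadjusted limma p (y axis) for the 13912 genes. Dark points are the genes that passed at an adjusted p below 0.05 and red points the 11 DEGs, of which NEURL3 and TNC have the smallest p.

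All levels below are log2 signals of the brightest probe of a gene relative to the 75th percentile of the array, and a level is not compared between genes. A2M was at 4.70, 4.54, 4.72 and 5.50 in the DMSO 24 h arrays and at 6.36, 6.47, 5.83 and 6.45 in the DMSO 72 h arrays. The groups did not overlap, although DMSO 24 h replicate 4 lay closest to the 72 h arrays. Of the 104 genes that passed, 102 did not overlap, which their selection on the same arrays makes likely. Over all genes, every 72 h array lay above every 24 h array in 4.37% and below in 8.68%. For A2M itself the values were as follows. The log2 fold change of A2M was 1.51 ± 0.20 (SE, n = 4 and 4, limma adjusted p = 0.029), or 2.85-fold. SPRY1 was at -0.54, -0.37, -0.62 and -0.72 at 24 h and at 0.97, 0.77, 0.67 and 0.46 at 72 h, so every 72 h array was above every 24 h array. The log2 fold change of SPRY1 was 1.22 ± 0.10 (adjusted p = 0.0093), and its dimmer probe gave 0.85 (adjusted p = 0.052).

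PSG5, a pregnancy-specific glycoprotein of the carcinoembryonic antigen family, was dim, at -2.07, -1.75, -1.80 and -1.49 at 24 h and at -0.63, -0.75, -0.59 and -0.05 at 72 h. Its log2 fold change was 1.30 ± 0.18 (adjusted p = 0.035). SPON2 was at -0.22, -0.50, 0.05 and 0.18 at 24 h and at 0.68, 0.81, 0.69 and 1.23 at 72 h, a log2 fold change of 1.07 ± 0.12 (adjusted p = 0.019). Neither gene overlapped between the groups. TMEM40, a transmembrane protein, passed the background limit on each 72 h array (-2.85, -2.13, -2.52 and -2.44) and on none at 24 h. For such genes only a bound can be given, the mean of the bright group against the lowest signal that counted as above background on the arrays of the dim group. TMEM40 was at least 1.78-fold higher at 72 h. Such genes entered the test only through their bright group, and their adjusted p is that of the unbounded log2 fold change. For TMEM40 this was 1.22 (limma adjusted p = 0.042), which rests on signals below the background limit at 24 h.

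Among the genes that were lower, NEURL3 was at 1.17, 1.60, 1.56 and 1.33 at 24 h and at -0.03, 0.01, 0.11 and -0.21 at 72 h. The gap between the groups was far wider than the spread within either, with a log2 fold change of -1.49 ± 0.10 (adjusted p = 0.0066). TNC was at 3.22, 3.87, 3.19 and 3.46 at 24 h and at 2.57, 2.16, 2.73 and 2.12 at 72 h. Its log2 fold change was -1.17 ± 0.08 (adjusted p = 0.0066), or 0.443-fold. MMP7 was at 1.56, 1.22, 1.05 and 1.495 at 24 h and at 0.07, 0.36, -0.10 and 0.24 at 72 h, a log2 fold change of -1.13 ± 0.13 (adjusted p = 0.019).

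SERTAD4-AS1, an antisense transcript, was at 2.37, 2.51, 1.97 and 1.89 at 24 h and at 1.46, 1.31, 1.32 and 0.95 at 72 h, a log2 fold change of -1.01 ± 0.13 (adjusted p = 0.029). Its neighbour on the other strand, SERTAD4, gave -0.97 ± 0.16 (adjusted p = 0.049), so both transcripts of the pair were lower. OTOGL, an otogelin-like secreted protein, was at -2.03, -2.30, -2.55 and -1.998 at 24 h and was not well above background on any array at 72 h. OTOGL was at least 2.07-fold lower at 72 h (unbounded log2 fold change -1.78, limma adjusted p = 0.047). LAG3, an immune checkpoint receptor, was at -2.42, -2.90, -2.63 and -2.64 at 24 h and likewise not well above background at 72 h. This makes it at least 1.54-fold lower (unbounded log2 fold change -1.03, limma adjusted p = 0.042). Of 7 immune markers, CD14 and CSF1R were detected on all 8 arrays and the other 5, PTPRC and CD3E among them, on none, and their part in the value of LAG3 was not tested.

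**Figure D3:**
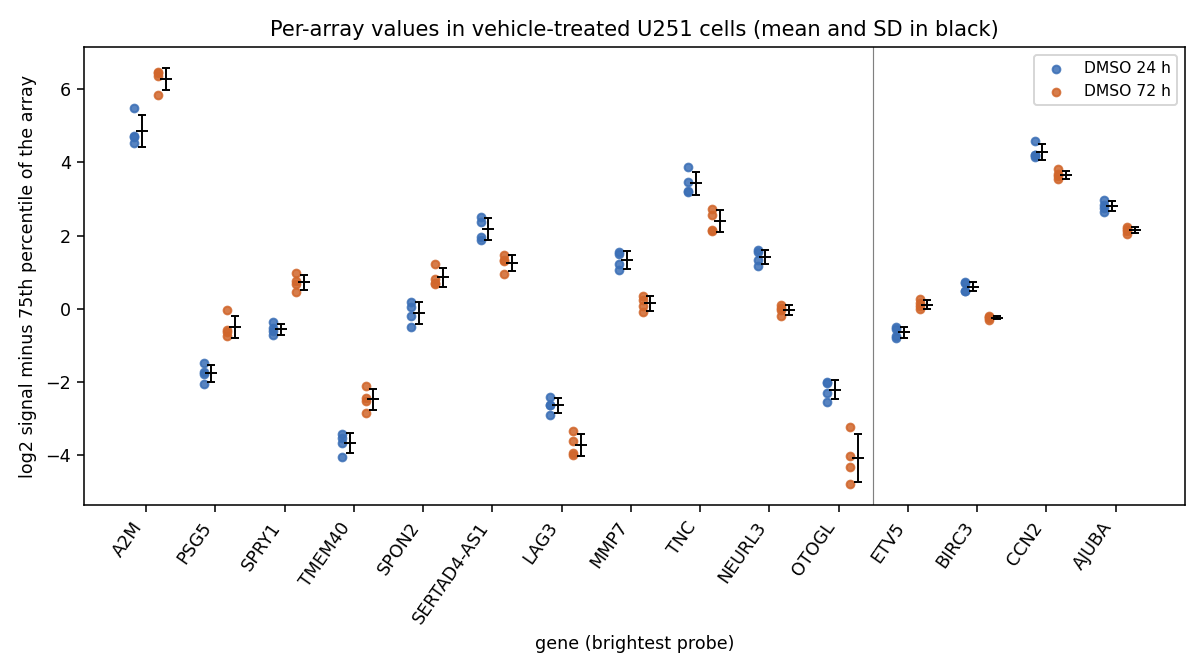
Log2 signal minus the 75th percentile of the array for the 11 DEGs (left of the line) and 4 further genes that passed (right), with a point per array, DMSO 24 h in blue, DMSO 72 h in orange, and mean ± SD (n = 4) in black. No group of 4 overlaps with the other for any gene shown, which their selection on the same arrays makes likely. OTOGL has the widest spread at 72 h (SD 0.66).

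Targets of YAP and TEAD were, among the 31 lists, the one with the most genes that passed in 1 direction. Of 29 genes in the list 27 were tested, 3 passed as lower at 72 h and none as higher, and 22 of the 27 had a negative log2 fold change. Over all genes 0.388% passed as lower, and 46.5% had a positive log2 fold change. At an unadjusted p below 0.05 by limma, 13 of the list were lower and 1 higher, where 12.3% and 9.01% of all genes were. The median of the list was -0.24, against -0.01 over all genes. In 10 of the 27 genes every 72 h array lay below every 24 h array, where 8.68% of all genes did so. The 3 were CCN2, which encodes a matricellular protein, AJUBA, a LIM protein that holds back the Hippo kinase LATS, and BIRC3, an inhibitor of apoptosis. CCN2 also answers to TGF-beta and BIRC3 to NF-kB.

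CCN2, whose promoter is printed above, was at 4.19, 4.60, 4.21 and 4.14 at 24 h and at 3.54, 3.62, 3.81 and 3.67 at 72 h. DMSO 24 h replicate 2 stood above the other 24 h arrays, and the groups did not overlap. The log2 fold change of CCN2 was -0.68 ± 0.10 (adjusted p = 0.040). AJUBA was at 2.64, 2.83, 2.97 and 2.76 at 24 h and at 2.14, 2.22, 2.04 and 2.19 at 72 h, a log2 fold change of -0.64 ± 0.09 (adjusted p = 0.035). BIRC3 was at 0.71, 0.72, 0.49 and 0.48 at 24 h and at -0.23, -0.21, -0.25 and -0.31 at 72 h, the tightest of the 3 at 72 h. Its log2 fold change was -0.87 ± 0.08 (adjusted p = 0.011), and it passed with 5 of the 8 arrays left out in turn, against 1 for AJUBA and 0 for CCN2. Outside the list, and chosen after its values were seen, FRMD6, a FERM-domain protein of the Hippo pathway, was lower too, by -0.54 ± 0.08 (adjusted p = 0.041). ANKRD1, a classical target of the same factors, was not called (-0.32 ± 0.25, adjusted p = 0.50).

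ERK feedback genes were mixed. Of the 22 tested, SPRY1 and ETV5 were higher at 72 h and none passed as lower, with 13 of 22 positive and a list median of 0.11. At an unadjusted p below 0.05, 6 were higher and 4 lower by limma, where 21.3% of all genes had such a p. The lowest value in the list was -0.87, which did not pass. ETV5, an ETS transcription factor, was at -0.80, -0.50, -0.74 and -0.56 at 24 h and at 0.26, 0.06, 0.14 and -0.01 at 72 h, a log2 fold change of 0.72 ± 0.08 (adjusted p = 0.018). IL17RD, a membrane inhibitor of fibroblast growth factor signalling that was picked after its values were seen, gave 0.60 ± 0.07 (adjusted p = 0.018). Of the members that did not pass, ETV4 was at 0.55 (adjusted p = 0.11) and MYC had a negative value (-0.51 ± 0.09, adjusted p = 0.053). In the immediate early list of 22, FOS had a value of 0.88 ± 0.22 (adjusted p = 0.095) and KLF10 one of -0.63 ± 0.11 (adjusted p = 0.051). Of that list 13 were negative, with a median of -0.07. No gene of it passed by limma (7 at an unadjusted p below 0.05, 4 lower and 3 higher) or by the methods' t-test. The receptor tyrosine kinase ALK, also picked after its values were seen, was higher by 0.99 ± 0.14 (adjusted p = 0.038).

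The matrix genes were split. In the list of collagens and matrix 1 of 31 tested genes was higher and 1 lower: FBLN1, the basement membrane protein fibulin-1, gave 0.80 ± 0.09 (adjusted p = 0.019), and TNC is given above. All 3 probes of FBLN1 passed, and the dimmer ones gave 1.12 and 1.16. In the list of matrix proteases and their inhibitors MMP14, a membrane-bound collagenase, was higher (0.60 ± 0.09, adjusted p = 0.035), while MMP7 was lower, out of 21 tested. MMP3 had the largest absolute value there, -1.84, but did not pass (adjusted p = 0.059). Among genes of adhesion and contact, the cadherin CDH6 (0.96 ± 0.11, adjusted p = 0.019) and the integrin subunit ITGB5 (0.56 ± 0.08, adjusted p = 0.038) were higher, and none of the 40 tested passed as lower. Secreted proteins picked after their values were seen, EFEMP2, MFGE8 and PROS1, were higher by 0.53 ± 0.08, 0.55 ± 0.08 and 0.58 ± 0.08 (adjusted p = 0.046, 0.034 and 0.028).

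Inflammatory and NF-kB genes had the lowest list median, -0.29, with 19 of 22 tested genes negative, where 46.5% of all genes were positive. At an unadjusted p below 0.05 by limma, 11 were lower and 2 higher, where 12.3% and 9.01% of all genes were. RELB, an NF-kB subunit, passed as lower (-0.46 ± 0.06, adjusted p = 0.028), as did BIRC3, which stands in both lists. CCL2, a monocyte chemokine, was at -0.62 without passing (adjusted p = 0.064). Among interferon-stimulated and antigen presentation genes none of 48 passed by limma (9 at an unadjusted p below 0.05) or by the methods' t-test. JAG1, a Notch ligand, was the only gene of the Notch and WNT list to pass, and it was lower (-0.62 ± 0.10, adjusted p = 0.049).

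**Figure D4:**
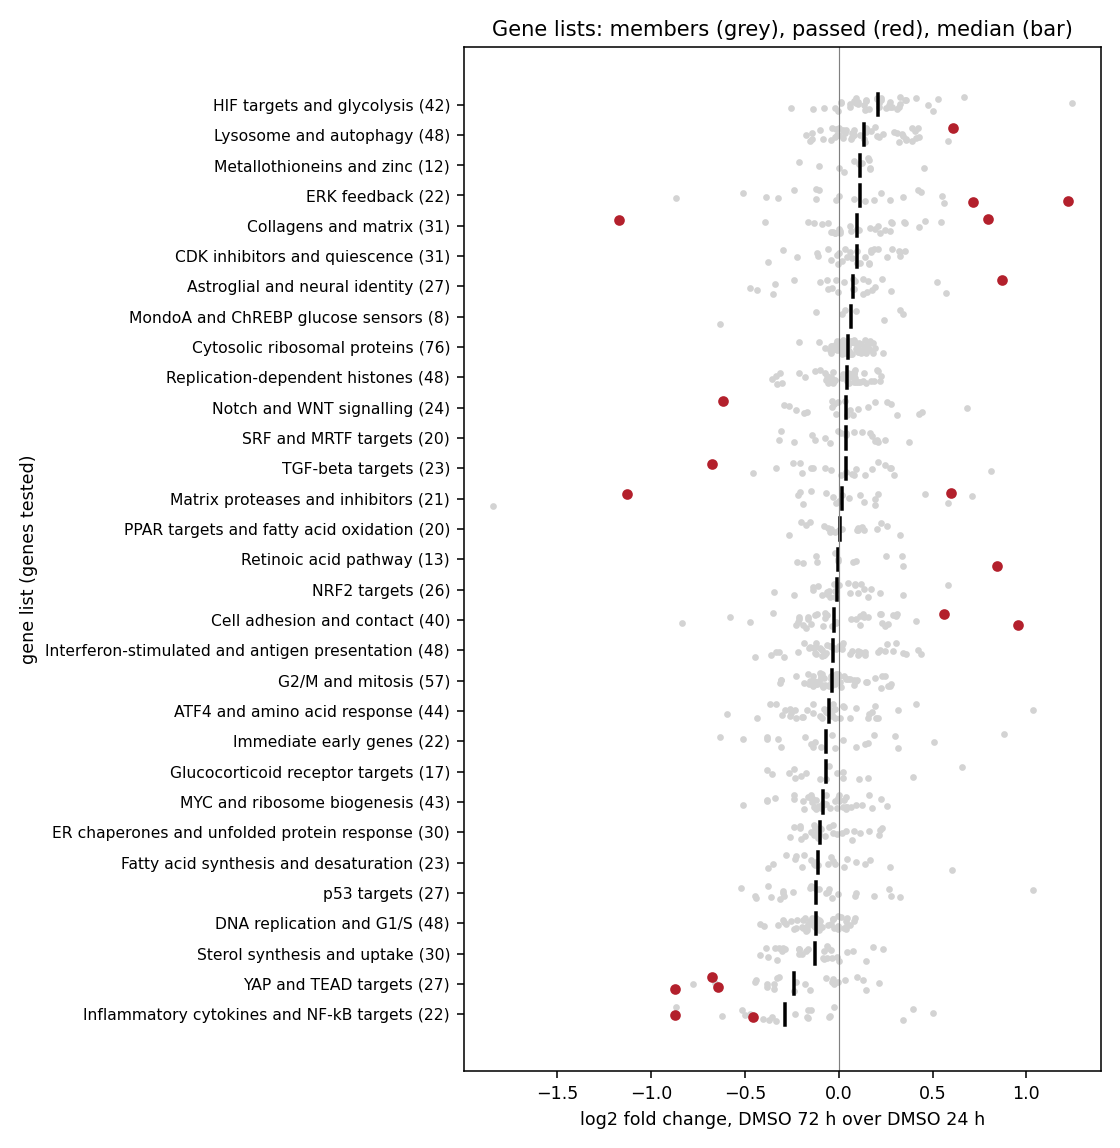
Log2 fold change of DMSO 72 h over DMSO 24 h (x axis) for every tested gene of each of 31 gene lists, ordered by the list median (black bar), with genes that passed in red and the number tested in brackets. The YAP and TEAD and the NF-kB lists lie lowest (medians -0.24 and -0.29), and the HIF list highest (0.21) with no member that passed.

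Lists of growth and metabolism held almost no gene that passed. Over all genes tested, 46.5% had a positive log2 fold change, and 21.3% had an unadjusted p below 0.05 (9.01% higher and 12.3% lower), which is the share to set beside the list counts. In DNA replication and G1/S none of 48 passed by limma (8 at an unadjusted p below 0.05, all lower), although 39 of them were negative, with PCNA (the replication clamp) at -0.42 ± 0.08 (adjusted p = 0.064) and a list median of -0.12. None of 57 genes of G2/M and mitosis, of 48 replication-dependent histones or of 31 CDK inhibitors and quiescence genes passed (6, 7 and 6 at an unadjusted p below 0.05), nor did any by the methods' t-test after adjustment. Their medians were -0.03, 0.05 and 0.10. In the HIF and glycolysis list 37 of 42 genes were positive with a median of 0.21, and none passed by limma (15 at an unadjusted p below 0.05, of which 14 were higher) or by the methods' t-test. In 8 of the 42 every 72 h array lay above every 24 h array, where 4.37% of all genes did so. VEGFA (a vascular growth factor) was at 0.67 ± 0.19 (adjusted p = 0.12) and CA9 (a carbonic anhydrase) at 1.24 ± 0.48 (adjusted p = 0.20). By replicate number, CA9 was at 2.94, 2.57, 1.25 and 1.67 at 24 h and at 3.93, 3.99, 2.54 and 3.04 at 72 h. For both genes replicates 1 and 2 lay above replicates 3 and 4 at each duration. The fit did not use these numbers, so its SE includes that spread, and whether the numbers pair the arrays is not known. No gene passed in the lists for ATF4, the unfolded protein response, sterol synthesis, fatty acid synthesis, p53, NRF2, glucocorticoid receptor or MYC targets, whose medians lay between -0.12 and -0.01 and where 5 to 12 genes of a list had an unadjusted p below 0.05 by limma and none passed by the methods' t-test. AKR1B10, an aldo-keto reductase of the NRF2 list, gave 0.58 ± 0.15 (adjusted p = 0.094) on its brightest probe, and 0.54 on a second probe that did pass (adjusted p = 0.039). GDF15, a secreted stress cytokine held by the ATF4 and p53 lists, came nearest with 1.04 ± 0.18 (adjusted p = 0.052). In ribosomal proteins 60 of 76 were positive with a median of 0.05, which turned to -0.03 with normexp background correction and also fell below 0 with quantile normalization.

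Lysosome and autophagy genes were positive in 35 of 48, with a median of 0.14. At an unadjusted p below 0.05, 18 were higher and none lower by limma, and in 9 of the 48 every 72 h array lay above every 24 h array, against 4.37% of all genes. CTSH, a lysosomal cysteine protease, passed with 0.61 ± 0.09 (adjusted p = 0.039), from 6.51 to 6.78 at 24 h and from 7.09 to 7.40 at 72 h. ASAH1, the lysosomal acid ceramidase, picked after its values were seen, gave 0.42 ± 0.07 (adjusted p = 0.049). APOE, the lipid carrier that astrocytes secrete and the only gene of the astroglial and neural list of 27 to pass, was at 1.18, 0.90, 1.02 and 1.28 at 24 h and at 1.88, 1.90, 1.71 and 2.12 at 72 h. The log2 fold change of APOE was 0.87 ± 0.09 (adjusted p = 0.017). MLC1, an astrocyte membrane protein also picked afterwards, gave 0.50 ± 0.06 (adjusted p = 0.028). CRABP1, which binds retinoic acid in the cytoplasm, was higher by 0.84 ± 0.12 (adjusted p = 0.039), and no other gene of its list of 13 passed.

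Other groups were noticed among the 104 genes and their lists drawn up afterwards, so their counts are descriptions. Of 21 clock genes tested, the repressors NR1D1 and NR1D2 and the activator BMAL2 passed as lower, where 0.388% of all genes did. At an unadjusted p below 0.05 by limma, 5 of the 21 were lower and 2 higher, where 12.3% and 9.01% of all genes were. NR1D1 was at 2.04, 2.09, 2.21 and 2.15 at 24 h and at 1.61, 1.76, 1.52 and 1.65 at 72 h, a log2 fold change of -0.46 ± 0.07 (adjusted p = 0.042). NR1D2 changed by -0.52 ± 0.08 (adjusted p = 0.046), with -0.44 on its dimmer probe (adjusted p = 0.13), and BMAL2 by -0.45 ± 0.07 (adjusted p = 0.049). The hour of day at harvest is not given in the sources used here. In the S100 family of small calcium-binding proteins, 3 of 12 tested genes passed as lower, where 0.388% of all genes did. At an unadjusted p below 0.05 by limma, 5 of the 12 were lower and 1 higher. S100A2 was at 4.13, 4.12, 4.06 and 4.15 at 24 h and at 3.50, 3.53, 3.44 and 3.55 at 72 h, with a spread far under the difference of -0.60 ± 0.06 (adjusted p = 0.016). S100A3 and S100A4 gave -0.79 ± 0.09 and -0.64 ± 0.10 (adjusted p = 0.019 and 0.048).

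Further single genes, also picked afterwards, were OGDHL, PKIA, TRIB2 and DIRAS3. OGDHL, a mitochondrial oxoglutarate dehydrogenase-like enzyme, was at 0.91, 0.89, 1.15 and 1.12 at 24 h and at 1.84, 1.91, 1.77 and 2.04 at 72 h, a log2 fold change of 0.91 ± 0.08 (adjusted p = 0.010) that passed with 5 of the 8 arrays left out in turn. PKIA, an inhibitor of protein kinase A, was higher by 0.67 ± 0.07 (adjusted p = 0.015) and passed in 4 of those 8 fits. TRIB2, a pseudokinase, was higher by 0.71 ± 0.11 (adjusted p = 0.046), and DIRAS3, an imprinted small GTPase, lower by -0.89 ± 0.13 (adjusted p = 0.035). TRIB2 and DIRAS3 each passed in 1 of the 8 fits.

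The same durations could be set side by side in the cells given G-1 IC50, whose 8 arrays shared the slides but no sample with the vehicle arrays. There, 160 genes passed between 72 h and 24 h, 0.511% of the genes tested being higher and 0.640% lower. Of the 50 genes higher at 72 h in vehicle, 48 had a positive difference in the G-1 IC50 arrays and 21 passed as higher. Of the 54 lower in vehicle, 53 had a negative difference and 21 passed as lower. The medians of these groups in the G-1 IC50 arrays were 0.49 and -0.53. All 11 DEGs had the same sign there. A2M gave 2.11 (adjusted p = 0.0077), NEURL3 -1.33 (adjusted p = 0.0077), SPRY1 1.18 (adjusted p = 0.021), TNC -0.71 (adjusted p = 0.017), APOE 0.68 (adjusted p = 0.013), CDH6 0.98 (adjusted p = 0.013) and AJUBA -0.73 (adjusted p = 0.016) in the G-1 IC50 arrays. OTOGL (-0.75) and SERTAD4-AS1 (-0.89) passed there too (limma adjusted p = 0.026 and 0.042). Of the other DEGs, apart from PSG5, SPON2 (1.06), MMP7 (-0.92), TMEM40 (0.16) and LAG3 (-0.32) did not pass. Their limma adjusted p was 0.075, 0.060, 0.88 and 0.54. The YAP and TEAD targets CCN2 (-0.69) and BIRC3 (-0.51) did not pass either (limma adjusted p = 0.15 and 0.054).

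PSG5 was at 0.51 and JAG1 at -0.13 in the G-1 IC50 arrays, and neither passed there (adjusted p = 0.44 and 0.75). The difference between the treatments was tested by the interaction term, and none of the 104 genes passed it (23 at an unadjusted p below 0.05). For PSG5 and JAG1 its adjusted p was 0.81 and 0.76. YAP and TEAD targets had a list median of -0.19 in the G-1 IC50 arrays, and NF-kB genes one of -0.18. Across all 13905 genes, which are not independent replicates, the log2 fold changes of the 2 treatments correlated at 0.55, and 66.6% had the same sign.

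**Figure D5:**
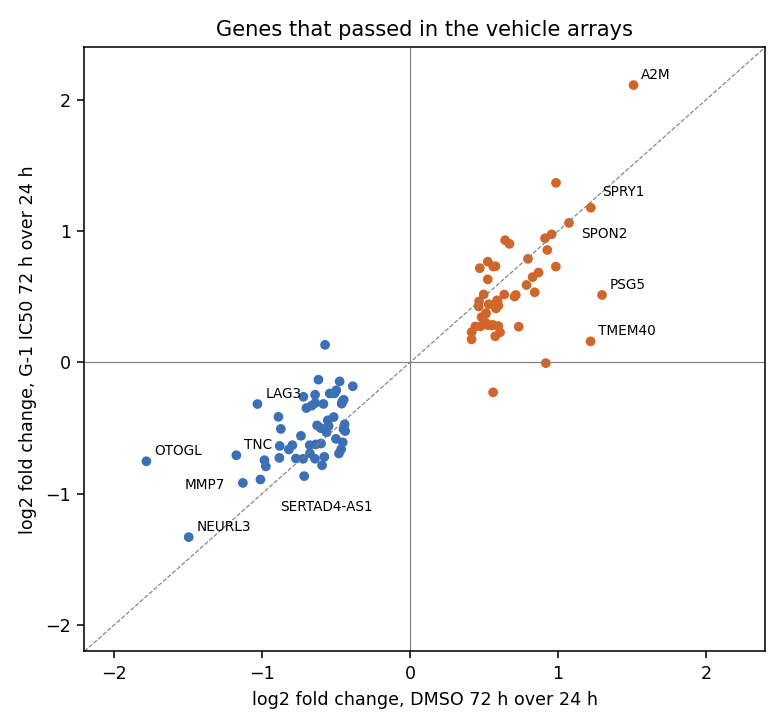
Log2 fold change of 72 h over 24 h in the vehicle arrays (x axis) and in the G-1 IC50 arrays (y axis) for the 104 genes that passed in vehicle, orange where higher and blue where lower at 72 h, with the 11 DEGs named and a dashed line of equal values. Of the points 48 of 50 orange lie above 0 and 53 of 54 blue lie below it, while PSG5 lies under the line, and the vehicle values of TMEM40, OTOGL and LAG3 rest on a group below background.

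Over all genes 5 passed the interaction (803 at an unadjusted p below 0.05), each with a duration effect that did not pass in vehicle. SREBF1, the sterol and lipid transcription factor, changed by -0.15 ± 0.06 in vehicle and by -1.01 ± 0.09 in G-1 IC50 (interaction -0.85, adjusted p = 0.014). ACACA, which makes malonyl-CoA for fatty acid synthesis, changed by 0.05 ± 0.08 and -0.62 ± 0.07 (interaction -0.67, adjusted p = 0.029). The group means of SREBF1 at 24 h and 72 h were 7.56 and 7.37 in vehicle and 8.59 and 7.54 in G-1 IC50. Those of ACACA were 6.43 and 6.45 in vehicle and 7.09 and 6.44 in G-1 IC50. For both genes the treatments thus lay apart mainly at 24 h, where G-1 IC50 was higher, a difference not tested here. The retinoid enzymes DHRS3 and RDH10 moved apart: DHRS3 was at 0.34 ± 0.09 in vehicle and -1.34 ± 0.19 in G-1 IC50 (interaction -1.61), and RDH10 at 0.34 ± 0.09 and 1.24 ± 0.11 (interaction 0.92, adjusted p = 0.038 for both). ITGB3, an integrin subunit, changed by 0.22 ± 0.15 and -1.55 ± 0.20 (interaction -1.72, adjusted p = 0.038). Its group mean at 24 h was 1.86 in both treatments, and at 72 h it was 2.07 in vehicle and 0.34 in G-1 IC50. DHRS3 had means of 7.75 and 8.03 in vehicle and of 7.19 and 5.86 in G-1 IC50. RDH10 had means of 3.85 and 4.20 in vehicle and of 3.59 and 4.86 in G-1 IC50.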

How the data were processed

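U251 RNA was measured on 1-colour Agilent arrays. The authors deposited spot intensity values, background-subtracted by Feature Extraction, with flags, and a table of log2 values. Intensities were taken to log2, without outlier spots, averaged per probe and set relative to each array's 75th percentile. Of the 8 vehicle arrays, 22161 probes well above background on all 4 arrays of a group were fitted with limma 3.58.1 (R 4.3.3) by group means and slide, with Benjamini-Hochberg adjustment over all probes. The deposited log2 values differed from these by at most 0.0058 after median centring per probe. A gene was taken by its brightest probe, with 14 Y-linked and X-inactivation genes left out, and 35032 of 58201 probes had a symbol.

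Genes named are the DEGs, up to 4 members that passed per list (otherwise up to 2 of the largest changes), and those said to be picked afterwards, with some further list members. Members, lists and tests were chosen with earlier results of these data known. Promoters are from RefSeq (GRCh38.p14). The G-1 IC50 arrays and the interaction were fitted likewise. Alternatives covered normalization, background, filter, covariates, arrays in the fit, probe choice and the methods' t-test without the slide. The fit was tested on simulated data. The Feature Extraction version in the submitters' processing notes is 10.7.3.1. The labels and the methods differ on the DMSO concentration, and labels are used. For G-1 IC50 24 h the duration entry of the labels conflicts with the titles, which set the groups. A gene of the lists is not reported here.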

Additional observations from a re-analysis of the deposited data

Results flagged for a closer look

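In 6 of 162 groups of 4 examined, an array lay far from the other 3, with a gap to its nearest neighbour that made up most of the range. Chance gives this in about 1 of 20 groups. DMSO 24 h replicate 2 was high for ANLN (3.57 against 2.73 for the nearest, 0.908 of the range), for CCN2 (4.60 against 4.21, 0.844) and for FRMD6 (1.88 against 1.59, 0.837). DMSO 24 h replicate 3 was high for STARD4 (1.91 against 1.501, 0.922). DMSO 72 h replicate 3 was low for ACSBG1 (-1.73 against -1.004, 0.925), and DMSO 72 h replicate 4 was high for IFITM1 (3.02 against 2.34, 0.912). Of these genes CCN2 and FRMD6 had passed, both as lower at 72 h.

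Between G-1 IC50 and vehicle the effect of duration differed for 5 genes by the limma interaction term: ACACA (-0.67 log2), DHRS3 (-1.61), ITGB3 (-1.72), RDH10 (0.92) and SREBF1 (-0.85).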

How the results depend on the processing

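All 104 genes that passed kept their direction under every alternative in which they were tested, which their selection on the same arrays makes likely, and the number of calls did not hold. The deposited log2 table, quantile normalization and any probe of a gene kept all 4 counts within 1.5 times. Restricting the test to probes detected on each of the 8 arrays, 90 genes passed as higher at 72 h and 102 as lower, and without the filter on dim probes 0 and 0 passed (2569 at an unadjusted p below 0.05), with 0 and 0 DEGs. The 50th percentile gave 21 and 27 (DEGs 8 and 13), normexp background correction 223 and 523 (DEGs 2 and 2), and an intensity trend 225 and 246 (DEGs 11 and 11). Without the slide term 25 passed as higher and 38 as lower. Adding the G-1 IC50 arrays gave 269 and 344 (11 DEGs higher), including 98 of the 104, and all 24 arrays gave 271 and 346 (DEGs 10 and 10). The methods' t-test gave 819 and 1768 unadjusted (DEGs 13 and 12), and 12 and 26 after Benjamini-Hochberg adjustment (DEGs 1 and 1). Leaving out each array in turn gave 0 to 34 higher, 0 to 44 lower, and 0 to 8 and 0 to 5 DEGs. The cause of these differences was not tested.

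Arrays with the same replicate number were compared by their deviations from the group means. The correlations were -0.02, -0.18, -0.05 and 0.26, with 1 array nearest to its own number. The slide was not removed from these deviations, and only replicate 4 (0.26) had both its arrays on the same slide. The correlations therefore cannot decide whether the numbers pair the arrays. With the replicate number as a block, 0 genes passed as higher and 0 as lower, with 0 and 0 DEGs, whether the slide was a term (3242 at an unadjusted p below 0.05) or not (2491, 0 and 0, 0 and 0 DEGs; chosen after seeing the data). The block gave 260 genes in the G-1 IC50 arrays, also chosen afterwards, and changed the interaction count by none. Quantile normalization left 3 genes in the interaction.

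Apart from values taken within slide 1 or slide 2, SLC39A10 was the only named gene to change sign. It had not passed (-0.21) and ranged from -0.30 to 0.017 with each array left out. It was above 0 without DMSO 24 h replicate 2, the only 24 h array on slide 2, so this value too compares the durations on slide 1 alone. Of the list medians, 716 of the values under the alternatives moved by less than the spread between arrays and 10 moved by more. Signal over background limits OTOGL, LAG3 and TMEM40 to bounds.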
